A study of Mus musculus with 8 samples.

Results

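Rab proteins are small GTPases that sit on the membranes of the cell and direct the budding, movement, docking and fusion of vesicles. Each Rab marks its own compartment: some act between the endoplasmic reticulum and the Golgi, others on early, recycling or late endosomes, and others on the granules that a cell releases on demand. A Rab is active while it holds GTP. Exchange factors load it, GTPase-activating proteins switch it off, escort and dissociation proteins carry its lipid-modified form through the cytosol, and effectors such as tethers and motors read its active form. In eosinophils, as in other granulocytes, Rab proteins guide the crystalloid granules to the plasma membrane and the maturation of phagosomes.

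The Rab genes were taken as the genes whose symbol is Rab followed by a number and at most 1 letter and 1 further digit, which gave 59 of the 38392 genes measured. All 59 were annotated as protein coding. RNA was sequenced from cells sorted as eosinophils from 2 tissues of wildtype C57/BL6 mice, which were female according to the methods of the study, with 4 libraries per tissue. Bone marrow cells were gated as CD11b+Ly6G-Ly6C-SiglecF+SSChi and small intestinal cells as CD11b+MHC-II-SiglecF+SSChi. The intestinal cells had been released by warm enzymatic digestion after removal of the epithelium and enriched on beads against CD11b, while the bone marrow was only flushed, so tissue, gate and handling cannot be told apart. Libraries are named by their columns in the deposited table (BM_1, BM_3, BM_4 and BM_5, SI_6, SI_7, SI_10 and SI_11), and values are given in that order. The labels list them as separate samples and do not tie each column to an animal, so p-values measure the spread between these libraries.

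The deposited values are log2-like: for genes with many reads 1 unit stands for about a doubling, and at low counts the scale is compressed. They could be turned back into whole reads, between 11508002 and 21289164 per library. These reads, divided by a size factor per library, are called normalised counts, and levels of different genes are compared as normalised counts per kb of exon. A difference is the mean of small intestine less that of bone marrow, in units of the deposited scale and with the standard error of limma (SE), and a gene was called where the 2-sided limma p-value was under 0.05 after Benjamini-Hochberg adjustment over all genes.

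The defining transcripts of the sorted cell type did not follow the label evenly. A list of 10 eosinophil genes held 211 to 373 RPM (reads scaled to a library of 1000000 reads) in the bone marrow libraries and 2150 to 2684 in the small intestine libraries. Ccr3, the eotaxin receptor, stood at 3.58 to 7.37 RPM in bone marrow and at 855 to 1142 in small intestine. Alox15 (5.52 to 28.1 against 1057 to 1347), Il5ra (0.373 to 1.39 against 57.5 to 82.2) and Siglecf (38.5 to 46.1 against 170 to 222) were also higher in small intestine. The granule protein genes Prg2 (110 to 184 against 7.44 to 12.0) and Epx (23.6 to 31.4 against 0.782 to 1.94) were the other way round. Prg3, Ear1 and Ear2 were likewise higher in every bone marrow library, and Ear6 overlapped. Of 12 listed genes of neutrophil precursors, 11 were measured, and they held 26929 to 31033 RPM in the bone marrow libraries against 63.9 to 71.1 in small intestine. Mpo alone, the myeloperoxidase of neutrophil granules, took 10010.2 to 12522 RPM in bone marrow. No gene of either list was at 0 throughout a tissue. For this reason the groups are called bone marrow and small intestine libraries here and not eosinophils of the tissues.

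Small intestine libraries also held more reads of several other lists. These were epithelial genes (238 to 1539.6 RPM against 13.8 to 15.8 in bone marrow), goblet and Paneth cell genes (461 to 3406 against 1.10 to 7.03), pancreatic acinar genes (321 to 3501 against 2.07 to 3.63), macrophage and dendritic cell genes (1933 to 2422 against 67.3 to 76.1), fibroblast and smooth muscle genes (57.9 to 153 against 5.89 to 16.9), plasma and B cell genes (421 to 1852 against 314 to 385) and genes of the response to dissociation (5626 to 7186 against 82.4 to 100.4). Within the macrophage and dendritic cell list, Itgax and Adgre1 together held 65.4% to 89.5% of the small intestine sum. Fcgr1 (0.440 to 0.986 RPM in bone marrow, 0.275 to 1.76 in small intestine) and C1qc (2.56 to 4.07 and 5.03 to 10.04) were low in both tissues. Cd74 (11.8 to 18.7 and 59.6 to 380), H2-Aa (8.79 to 9.63 and 28.5 to 203) and Csf1r (11.6 to 17.3 and 77.0 to 84.7) were higher in small intestine. Of this list only Fcgr1 overlapped between the tissues. Of these lists only the goblet and Paneth list had genes at 0 throughout bone marrow, Defa17 and Tff3. Erythroid genes (95.3 to 116 in bone marrow against 6.20 to 13.6) and mast cell and basophil genes (214 to 289.5 against 37.8 to 123) were higher in bone marrow, where Mcpt4 was at 0. Most of the mast cell and basophil sum was Kit (196 to 273 RPM in bone marrow, 34.5 to 119 in small intestine). Ms4a2, Mcpt8 and Cpa3 were also higher in every bone marrow library. Mcpt1 was higher in small intestine (0.216 to 1.05 against 0 to 0.0733), and the rest of that list overlapped. Every Rab difference below moved with these lists between the tissues, and their part in it was not tested. In bulk RNA, fewer cells of a type and less RNA per cell cannot be told apart.

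The Rab genes did not move as one family between the tissues. Of the 59 genes, 20 rose and 13 fell in small intestine, and 26 were not called. The largest rises were those of Rab39, which acts on phagosomes and late endosomes, and Rab20, grouped here with early endosomes. The largest falls were those of Rab38, a Rab of lysosome-related organelles, and Rab3d, a Rab of secretory granules. Rab7, Rab1a and Rab2a, among the 5 highest members per kb of exon in both tissues, were not called. Rab44, also among them, was called higher only narrowly (limma adjusted p = 0.0497). That call was lost without any single library other than SI_6 and after quantile normalisation.

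These calls stood beside 34.9% of all genes called, 22.0% called higher and 12.9% called lower. Among the 51 members with a mean of at least 10 reads, 19 rose and 13 fell, beside 34.6% and 28.6% of the 16215 genes with as many reads. The counts per role group below are to be read beside these shares, and no group was tested against them. Of the 8 members with fewer reads 1 was called, Rab40b, which had a mean of 1.62 reads. In 33 of the 59 members no bone marrow library overlapped the small intestine libraries, which was true of 34.3% of all genes. All 33 were among the 51 members averaging at least 10 reads, and 10923 of the 16215 genes with as many reads did not overlap either. The count was thus near that of genes of like depth. The median difference over the members was 0.22, beside 0.37 over all genes, and the median size of the difference was 0.80 beside 0.73. For the 51 members averaging at least 10 reads the median difference was 0.04, beside 0.12 over the 16215 genes with as many reads. Their median size was 0.80 beside 1.14, so these members differed less than genes of like depth. The direction of the calls depended on the scaling: 12 rose and 23 fell when each library was centred on its median over all genes, which moved the median difference of all genes from 0.37 to -0.53, 14 rose and 19 fell after quantile normalisation, and 15 rose and 14 fell when libraries were centred on the median of genes averaging at least 10 reads. Tested against a difference of 1 log2 unit instead of 0, 9 members were higher (Rab39, Rab20, Rab27b, Rab37, Rab6b, Rab25, Rab4a, Rab11a and Rab8b) and 4 were lower (Rab38, Rab3d, Rab7b and Rab31).

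**Figure D1:**
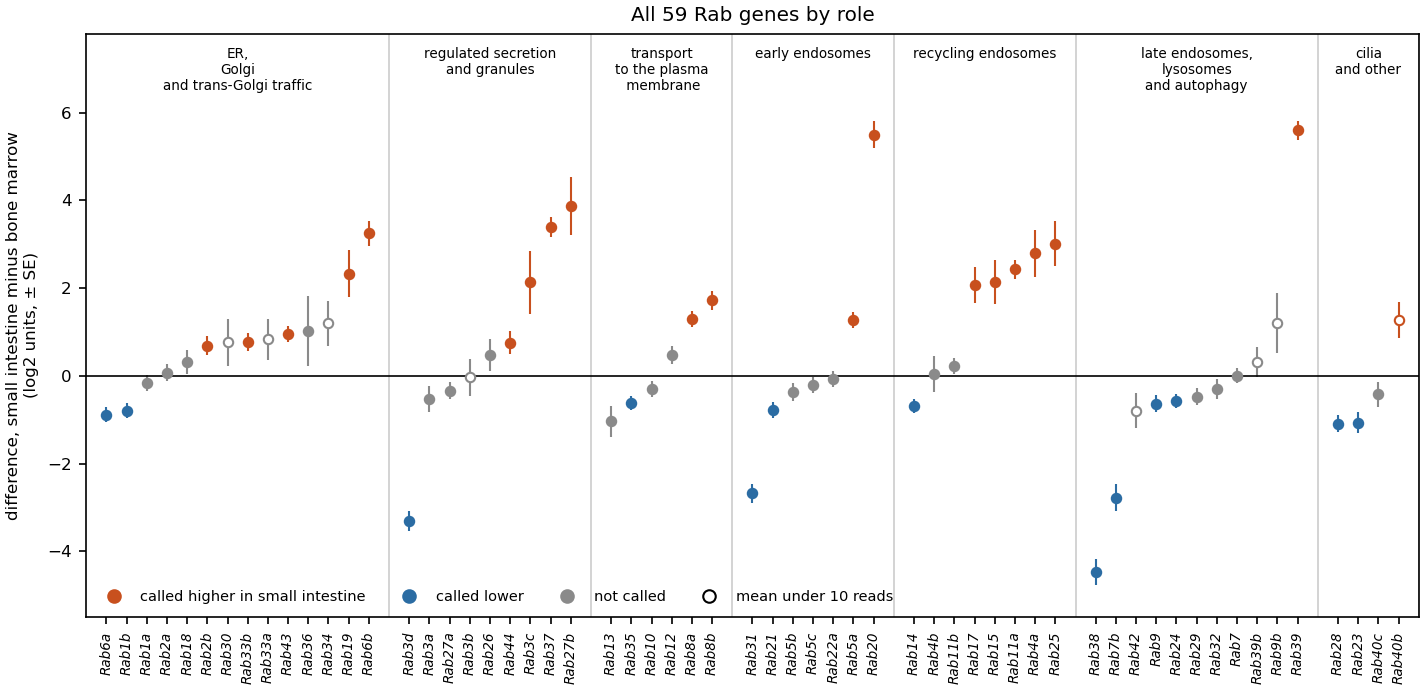
Difference between tissues on the deposited log2 scale (small intestine minus bone marrow, point and SE bar) for all 59 Rab genes, ordered within 7 role groups. Orange points were called higher, blue points lower and grey points not called by limma, and open points had a mean under 10 reads. Rises of over 5 units were those of Rab20 and Rab39, and the falls of over 2 units were those of Rab3d, Rab31, Rab38 and Rab7b.

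Together the Rab genes took 0.309% ± 0.0116 of all bone marrow reads and 0.306% ± 0.0268 of those from small intestine (SD, n = 4 each). Per kb of exon, the 5 highest members made up 42.1% of the summed Rab level in bone marrow and 45.5% in small intestine. Rab7, which brings late endosomes to lysosomes, was first in bone marrow at 1447 ± 56.8 normalised counts per kb and stood at 1458 ± 141 in small intestine (SD over 4 libraries each). Rab1a, the Rab of transport from the endoplasmic reticulum to the Golgi, had 955 ± 64.7 and 854 ± 107 normalised counts per kb, and Rab2a, which acts at the same step, had 783 ± 111 and 821 ± 93.1. These spreads overlapped between the tissues.

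The rank at the top changed for other members. Rab8b, which carries vesicles from the trans-Golgi to the plasma membrane, moved from rank 7 in bone marrow (483 ± 16.4 normalised counts per kb) to rank 1 in small intestine (1626 ± 351), although its small intestine level overlapped that of Rab7. Rab20 went from 13.2 ± 5.25 to 684 ± 124 normalised counts per kb, and Rab11a, the Rab of recycling endosomes, from 94.7 ± 12.7 to 519 ± 91.8. By role, Rabs of transport to the plasma membrane made up 11.5% of the summed level in bone marrow and 21.1% in small intestine, those of recycling endosomes 4.46% and 7.63%, those of late endosomes and lysosomes 26.7% and 19.7%, and those of the endoplasmic reticulum and Golgi 24.3% and 20.4%. The shares of the Rabs of regulated secretion (17.4% and 16.9%) and of early endosomes (14.2% and 13.6%) differed by less than 1 percentage point. Rab20, counted with early endosomes, made up 0.115% of the summed level in bone marrow and 5.17% in small intestine. The early and late endosome shares therefore depend on where Rab20 is placed.

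Among the 9 Rabs of regulated secretion and granules, 4 rose, 1 fell and 4 were not called, where 34.6% of genes averaging at least 10 reads rose and 28.6% fell. The fall was that of Rab3d, a Rab of zymogen and blood cell granules, and the rises were those of Rab27b, Rab37, Rab3c and Rab44. Rab27a, the widely expressed Rab that docks granules and lysosome-related organelles at the plasma membrane, was not called.

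Rab3d (ENSMUSG00000019066, GRCm38 chromosome 9, 21907491 to 21918192) stood at 10.62, 10.39, 10.45 and 10.19 in the bone marrow libraries and at 7.42, 7.33, 6.74 and 6.92 in small intestine. Every bone marrow library was higher than every small intestine library, and the gene fell by 3.31 ± 0.22 (limma adjusted p = 1.3e-05), a 10.1-fold lower normalised count. Its relatives were at lower levels: Rab3a stood at 5.04, 4.73, 4.31 and 3.78 in bone marrow and 4.15, 4.13, 3.74 and 3.70 in small intestine, where the ranges overlapped (-0.53 ± 0.30, limma adjusted p = 0.211). Without BM_5 that difference was -0.76 and was called (limma adjusted p = 0.0370). Rab3b, with a mean of 7.12 reads, stood at 3.37, 3.66, 2.83 and 3.0 in bone marrow and 2.71, 3.16, 4.4 and 2.47 in small intestine, with ranges that overlapped (limma adjusted p = 0.965).

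Rab3c, a form known from neurons, stood at 2.18, 2.98, 0.93 and 4.53 in bone marrow and at 4.79, 4.24, 5.73 and 4.42 in small intestine, with a mean of 15.4 reads. BM_5 lay within the small intestine range, and the rise of 2.14 ± 0.72 (limma adjusted p = 0.0481) was lost when any library other than BM_5 was left out (1.56 to 2.32, limma adjusted p = 0.0858 to 0.164).

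Rab27b, which acts with Rab27a in granule docking, stood at 0.93, 2.09, 1.93 and 3.97 in bone marrow, where BM_1 had 0 reads, and at 7.14, 6.42, 5.54 and 5.34 in small intestine. The groups did not overlap, and the rise was 3.88 ± 0.66 (limma adjusted p = 0.00196). Rab27a stood at 11.82, 11.82, 11.76 and 11.70 in bone marrow and at 11.15, 11.51, 11.38 and 11.70 in small intestine. Its lowest bone marrow library was just above its highest small intestine library, and the difference of -0.34 ± 0.19 did not pass (limma adjusted p = 0.211), although it was called lower with voom on the recovered reads, with a robust prior, after quantile normalisation and after centring on the library median.

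Rab37, a Rab found on the granules of mast cells and other secretory cells, stood at 7.07, 6.48, 6.65 and 6.31 in bone marrow and at 9.86, 9.97, 9.92 and 10.30 in small intestine. All small intestine libraries were higher, by 3.38 ± 0.23 (limma adjusted p = 1.3e-05), or 10.7-fold in normalised counts. Rab44, an unusually large Rab described in granulocytes and mast cells, stood at 11.80, 11.81, 11.90 and 11.81 in bone marrow and at 11.97, 12.47, 12.87 and 13.03 in small intestine. It was higher in every small intestine library, with SI_6 closest to bone marrow, and the rise of 0.76 ± 0.26 passed narrowly (limma adjusted p = 0.0497). That call was lost without any single library other than SI_6 (0.61 to 0.80, limma adjusted p = 0.0717 to 0.106), and the sign turned when libraries were centred on the median of all genes (-0.14). Rab26, a Rab of secretory granules in exocrine cells, stood at 4.51, 4.65, 3.48 and 4.48 in bone marrow and 4.73, 5.21, 3.96 and 5.11 in small intestine, with overlapping ranges (0.47 ± 0.37, limma adjusted p = 0.372).

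Recycling endosomes return receptors and membrane to the cell surface. Of their 8 Rabs, 5 rose (Rab25, Rab4a, Rab11a, Rab15 and Rab17), Rab14 fell, and Rab4b and Rab11b were not called. Among genes averaging at least 10 reads, as all 8 did, 34.6% rose. Only Rab11a among the 5 rises had a mean above 100 reads.

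Rab11a (ENSMUSG00000004771, GRCm38 chromosome 9, 64715299 to 64737758) stood at 8.35, 8.25, 7.88 and 8.14 in bone marrow and at 10.19, 10.60, 10.79 and 10.76 in small intestine. The tissues were far apart relative to their spread, and the rise was 2.43 ± 0.21 (limma adjusted p = 5.36e-05), or 5.49-fold in normalised counts. Rab25, the epithelial relative of Rab11, stood at 3.84, 2.70, 3.19 and 3.78 in bone marrow and at 7.74, 6.64, 5.57 and 5.61 in small intestine. Its small intestine libraries were spread over 2.18 units, with SI_6 highest and SI_7 next, and the rise was 3.01 ± 0.52 (limma adjusted p = 0.00202). Rab4a, which returns receptors quickly from early endosomes, stood at 2.18, 2.34, 2.61 and 3.57 in bone marrow and at 6.90, 5.36, 5.19 and 4.42 in small intestine. SI_6 was again the highest library, and the rise was 2.80 ± 0.54 (limma adjusted p = 0.00365). Rab15 (2.14 ± 0.51), which acts in endosome recycling, and Rab17 (2.07 ± 0.42), which recycles membrane in polarised epithelial cells, had means of 24.9 and 15.9 reads. The call of Rab15 was lost after quantile normalisation (1.26, limma adjusted p = 0.0888). Rab14, which moves between the Golgi, endosomes and phagosomes, fell by 0.69 ± 0.16 (limma adjusted p = 0.0108).

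Early endosomes receive newly internalised cargo. Of their 7 Rabs, Rab20 and Rab5a rose, Rab31 and Rab21 fell, and Rab5b, Rab5c and Rab22a were not called. Rab20 (ENSMUSG00000031504, GRCm38 chromosome 8, 11453518 to 11478710), which takes part in the maturation of phagosomes and endosomes, stood at 4.78, 4.8, 3.60 and 4.35 in bone marrow and at 9.45, 10.04, 10.04 and 9.99 in small intestine. The tissues did not come near each other, and the rise was 5.50 ± 0.31 (limma adjusted p = 5.41e-06), or 52-fold in normalised counts. Rab31, which carries cargo from the trans-Golgi to endosomes, stood at 10.38, 10.20, 10.16 and 10.07 in bone marrow and at 7.35, 7.8, 7.17 and 7.79 in small intestine. It was lower in every small intestine library and fell by 2.67 ± 0.22 (limma adjusted p = 3.31e-05), a 6.4-fold lower normalised count.

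The highest Rab of early endosomes per kb over both tissues together was Rab5c, one of the 3 Rab5 forms that fuse early endosomes, at 588 ± 65.0 normalised counts per kb in bone marrow and 511 ± 51.7 in the other tissue, where Rab20 was higher (684 ± 124). On the deposited scale it stood at 10.47, 10.40, 10.36 and 10.09 in bone marrow and 10.08, 9.98, 10.13 and 10.32 in small intestine, with overlapping ranges (limma adjusted p = 0.457). Rab5a, at 7.49 to 7.87 in bone marrow and 8.76 to 9.05 in small intestine, rose by 1.27 ± 0.18 (limma adjusted p = 0.000756). That call was lost when libraries were centred on the median of all genes (0.37, limma adjusted p = 0.553). It held when libraries were centred on the median of genes averaging at least 10 reads. Rab21, which takes part in integrin endocytosis, fell by 0.79 ± 0.18 (limma adjusted p = 0.00951).

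Of the 11 Rabs of late endosomes, lysosomes and autophagy, 4 fell (Rab38, Rab7b, Rab9 and Rab24) and Rab39 rose. Rab7, Rab29, Rab32, Rab39b, Rab42 and Rab9b were not called. A mean of at least 10 reads was reached by 8 of the 11, and 28.6% of all genes with as many reads fell. Rab39 (ENSMUSG00000055069, GRCm38 chromosome 9, 53684110 to 53706232), which acts on phagosomes and late endosomes, had the largest rise of the family. It stood at 2.99, 2.70, 2.61 and 2.58 in bone marrow, or 3 to 6 reads per library, and at 8.24, 8.28, 8.07 and 8.68 in small intestine. The bone marrow libraries were near the floor, and the rise was 5.60 ± 0.21 (limma adjusted p = 8.06e-07), or 94.5-fold in normalised counts.

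Rab38 (ENSMUSG00000030559, GRCm38 chromosome 7, 88430273 to 88491572), which with Rab32 delivers proteins to lysosome-related organelles, stood at 7.63, 7.42, 7.61 and 6.94 in bone marrow and at 2.41, 3.56, 2.71 and 3.02 in small intestine. It fell by 4.47 ± 0.30 (limma adjusted p = 1.2e-05), a 36.3-fold lower normalised count, while Rab32, at 9.82 to 10.20 in bone marrow and 9.31 to 10.01 in small intestine, was not called (-0.30 ± 0.22). Rab7b, which returns cargo from late endosomes to the trans-Golgi, stood at 8.10, 7.81, 7.86 and 7.11 in bone marrow and at 5.31, 4.69, 5.35 and 4.42 in small intestine. The tissues did not overlap, and it fell by 2.78 ± 0.31 (limma adjusted p = 0.000196). Rab7 itself stood at 11.93, 11.85, 11.93 and 11.82 in bone marrow and at 11.76, 11.90, 11.82 and 12.08 in small intestine, with overlapping ranges and a difference of 0.01 ± 0.17 (limma adjusted p = 0.976), which became -0.47 and was called lower after quantile normalisation (limma adjusted p = 0.0192).

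Rab9, another Rab of the route from late endosomes to the trans-Golgi, fell by 0.64 ± 0.20 (limma adjusted p = 0.0366), and this call was lost without BM_1, BM_3 or BM_4 (-0.61 to -0.58, limma adjusted p = 0.0750 to 0.0869). Rab24, a Rab of autophagy, fell by 0.58 ± 0.16 (limma adjusted p = 0.0238), and 62.4% of its exonic bases are shared with Prelid1 on the opposite strand. Rab29, a lysosomal partner of the kinase LRRK2, missed the threshold with all libraries (-0.47 ± 0.20, limma adjusted p = 0.108) and was called lower without SI_11 (-0.60, limma adjusted p = 0.0196). Rab39b, Rab42 and Rab9b had means of 3.88, 1.75 and 2.5 reads, at which a difference was hardly detectable.

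Of the 14 Rabs of the endoplasmic reticulum and Golgi, 5 rose (Rab6b, Rab19, Rab43, Rab33b and Rab2b), 2 fell (Rab6a and Rab1b) and 7 were not called (Rab1a, Rab2a, Rab18, Rab30, Rab33a, Rab34 and Rab36). Rab6b, the neuronal form of the Golgi Rab Rab6, stood at 4.69, 3.5, 4.38 and 4.05 in bone marrow and at 7.25, 7.78, 7.17 and 7.43 in small intestine. It was higher in every small intestine library, by 3.25 ± 0.29 (limma adjusted p = 5.99e-05), or 11.2-fold in normalised counts. Rab6a, the widespread form, stood at 10.41, 10.44, 10.55 and 10.49 in bone marrow and at 9.76, 9.35, 9.59 and 9.68 in small intestine. The groups did not overlap, and it fell by 0.88 ± 0.18 (limma adjusted p = 0.00469).

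Rab1b stood at 9.53, 9.64, 9.63 and 9.45 in bone marrow and at 8.74, 8.68, 8.67 and 8.97 in small intestine, and fell by 0.80 ± 0.17 (limma adjusted p = 0.00701). Rab1a, the most abundant of the group per kb, stood at 11.92, 11.72, 11.89 and 11.76 in bone marrow and at 11.84, 11.69, 11.39 and 11.71 in small intestine, with overlapping ranges (-0.17 ± 0.18, limma adjusted p = 0.491). Rab43 rose by 0.95 ± 0.18 and Rab19 by 2.33 ± 0.53, the latter at a mean of 17.6 reads. The call of Rab19 was lost after quantile normalisation (1.40, limma adjusted p = 0.114), and that of Rab43 when libraries were centred on the median of all genes (0.05, limma adjusted p = 0.942). The Rab43 call held when libraries were centred on the median of genes averaging at least 10 reads. Rab33b (0.77 ± 0.21, limma adjusted p = 0.0207) was not called without BM_1 (0.74, limma adjusted p = 0.0550), and Rab2b (0.68 ± 0.22, limma adjusted p = 0.0389) was not called without BM_1, SI_7 or SI_11 (0.60 to 0.62, limma adjusted p = 0.0643 to 0.102). Both fell below 0 when libraries were centred on the median of all genes (-0.13 and -0.22). Rab34, with a mean of 4.25 reads, was called higher only without SI_11 (1.60, limma adjusted p = 0.0286, against 1.20 ± 0.51 with all libraries).

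Rabs of transport to the plasma membrane numbered 6. Rab8a and Rab8b rose, Rab35, which acts in fast endocytic recycling, fell, and Rab10, Rab12 and Rab13 were not called. Rab8b stood at 11.17, 11.20, 11.19 and 11.09 in bone marrow and at 12.37, 12.94, 13.13 and 13.08 in small intestine. It was higher in every small intestine library, by 1.72 ± 0.22 (limma adjusted p = 0.000397), and Rab8a rose by 1.30 ± 0.18 (limma adjusted p = 0.000692). Both calls were lost when libraries were centred on the median of all genes (0.82 and 0.40). Both held when libraries were centred on the median of genes averaging at least 10 reads. Rab35 fell by 0.62 ± 0.16 (limma adjusted p = 0.0162). Rab13, a Rab of tight junctions, missed the threshold (-1.03 ± 0.36, limma adjusted p = 0.0527) and was called lower without BM_1 or SI_6 (-1.32 to -1.22, limma adjusted p = 0.0117 to 0.0439). It was also called lower with the mean-dependent robust prior, a pseudocount of 5, the minimum of 10 reads, quantile normalisation, both median centrings and without BM_5 and SI_6 together (-1.93 to -0.96, limma adjusted p = 0.000292 to 0.0464).

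In the last group, of 4 Rabs with roles at cilia or in ubiquitin ligases, Rab28 and Rab23 fell, Rab40b was called higher and Rab40c was not called. Rab28, which acts at cilia, stood at 9.09, 9.09, 9.22 and 9.08 in bone marrow and at 8.07, 7.75, 8.03 and 8.29 in small intestine. It fell by 1.09 ± 0.19 (limma adjusted p = 0.002) with no overlap of the tissues. Rab23, an inhibitor of hedgehog signalling at cilia, stood at 6.43, 6.73, 6.18 and 6.37 in bone marrow and at 5.39, 4.84, 5.63 and 5.57 in small intestine, and fell by 1.07 ± 0.24 (limma adjusted p = 0.0082). The call of Rab40b (1.27 ± 0.42) was lost without any library other than BM_1 (0.95 to 1.43, limma adjusted p = 0.0525 to 0.119).

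**Figure D2:**
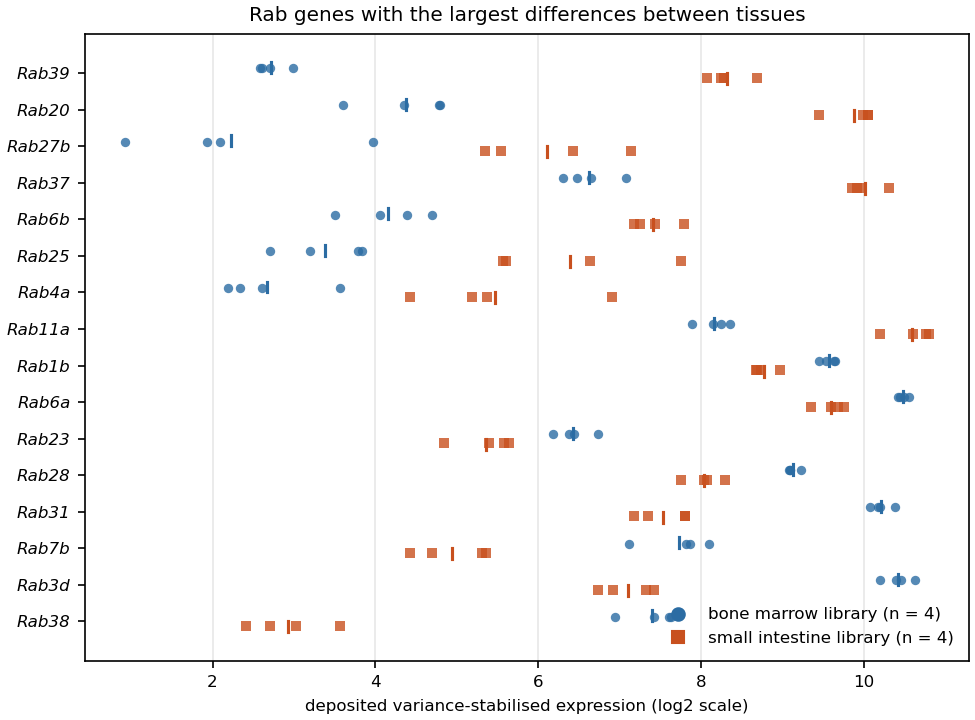
Deposited expression (log2 scale) in every library for the 8 largest rises and the 8 largest falls among called Rab genes averaging at least 10 reads. Blue circles are the 4 bone marrow libraries, orange squares the 4 small intestine libraries and vertical bars the group means. The groups did not overlap for any of the 16 genes, and the small intestine libraries were most spread for Rab4a, Rab25 and Rab27b.

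The promoters of 48 of the 59 Rab genes were found, in 60 windows, in a RefSeq table of the GRCm38.p6 build that covers 250 bases before to 50 after each start. Shown here are the upstream bases of the 2 largest rises and the 2 largest falls that had a window, so that a reader can see what these genes carry next to their start. Bases that the GENCODE M21 annotation places in an exon of a protein-coding gene were left out, which shortened Rab20 and Rab3d to 180 and 241 bases. Exons of non-coding genes were not left out. Capitals mark matches to GCGTG on either strand, the core of the sites bound by the aryl hydrocarbon receptor (AHR), the ligand-activated factor that the study followed.
Rab39, chr9:53706233-53706482, minus strand: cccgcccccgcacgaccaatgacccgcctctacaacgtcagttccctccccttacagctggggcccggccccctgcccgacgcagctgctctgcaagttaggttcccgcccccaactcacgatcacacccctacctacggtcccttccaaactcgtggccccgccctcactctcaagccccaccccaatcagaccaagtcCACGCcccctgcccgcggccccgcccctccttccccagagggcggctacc
Rab20, chr8:11478711-11478890, minus strand: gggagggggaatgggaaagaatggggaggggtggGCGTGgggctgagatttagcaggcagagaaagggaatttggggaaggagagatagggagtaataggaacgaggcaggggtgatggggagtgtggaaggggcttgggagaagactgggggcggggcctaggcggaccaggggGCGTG
Rab3d, chr9:21918193-21918433, minus strand: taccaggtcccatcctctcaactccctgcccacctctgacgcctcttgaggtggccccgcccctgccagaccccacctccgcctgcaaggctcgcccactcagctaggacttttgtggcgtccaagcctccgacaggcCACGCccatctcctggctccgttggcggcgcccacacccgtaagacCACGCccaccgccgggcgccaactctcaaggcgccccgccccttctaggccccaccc
Rab31, chr17:65772753-65773002, minus strand: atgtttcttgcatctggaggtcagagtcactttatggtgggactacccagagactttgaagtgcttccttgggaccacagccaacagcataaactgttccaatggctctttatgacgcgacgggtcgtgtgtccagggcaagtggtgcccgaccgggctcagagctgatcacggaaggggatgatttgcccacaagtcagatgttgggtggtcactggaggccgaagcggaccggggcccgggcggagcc
In the printed stretches this core occurred 1 time for Rab39, 2 times for Rab20, 2 times for Rab3d and not for Rab31, so it was present beside genes that rose and beside a gene that fell.

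Over whole windows, GCGTG on either strand was held by 22 of the 60 Rab windows (36.7%) and by 32.4% of all 32851 windows. By gene, it was found for 7 of the 16 Rabs with a window that rose, 6 of the 11 that fell and 9 of the 21 that were not called. The longer form TNGCGTG, which contains the core, was in 5% of Rab windows and 5.07% of all windows. The other motifs were also searched on both strands, and none of them contains another, though single matches can overlap. The E-box CACGTG was in 10% of Rab windows and 7.15% of all, the AP-1 motif TGANTCA in 5% and 7.81%, and the cyclic AMP response element TGACGTCA in 3.33% and 1.79%. The NF-kB motif was in no Rab window and in 1.2% of all windows. A match is a run of letters and was not tied to binding. The median GC content was 61.3% for Rabs that rose, 63.3% for those that fell, 62.7% for those not called and 52.7% over all windows.

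Several Rabs exist as close paralogues, and within some pairs, such as Rab11a and Rab11b, the difference between the genes was not the same in both tissues. Of 21 pairs that share a Rab number, 14 had a mean of at least 10 reads for both genes. The difference between the paralogues within each library was compared between tissues with an exact 2-sided permutation test over 70 assignments, which cannot give a p below 0.0286. In 10 of the 14 pairs the tissues did not overlap (exact p = 0.0286, Benjamini-Hochberg adjusted p = 0.04 over the 14 pairs). This was true of 66.6% of all pairs that can be formed from the 16215 genes averaging at least 10 reads, so the count among Rab pairs was near the background. The differences are not scaled for exon length, so only their change between tissues is read from them. Pairs within a family of 3 share genes and are not independent.

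Per kb of exon, Rab11a stood at 94.7 ± 12.7 normalised counts and Rab11b at 220.4 ± 13.3 in bone marrow (SD, n = 4), and Rab11a at 519 ± 91.8 and Rab11b at 258 ± 25.7 in small intestine. Rab11b was thus the higher form in bone marrow and Rab11a in small intestine. The difference Rab11a minus Rab11b was -2.11, -2.18, -2.57 and -2.13 units in the bone marrow libraries and -0.29, -0.10, 0.26 and -0.02 units in small intestine. The balance changed by 2.21, with Rab11a called and Rab11b not (0.22 ± 0.17). Rab5a minus Rab5b was -1.93 to -1.57 units in bone marrow and -0.40 to -0.02 in small intestine (a change of 1.63), and Rab5a minus Rab5c changed by 1.47. The balance of Rab5b and Rab5c differed by -0.16 with overlapping libraries (exact p = 0.143).

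In the Rab6 pair the genes moved in opposite directions: Rab6a minus Rab6b was 5.72, 6.94, 6.17 and 6.44 units in bone marrow and 2.51, 1.57, 2.42 and 2.25 in small intestine, a change of -4.13. Rab7 minus Rab7b was 3.83 to 4.70 units in bone marrow and 6.45 to 7.65 in small intestine. Rab1a minus Rab1b was 2.08 to 2.39 units in bone marrow and 2.72 to 3.10 in small intestine, a call that was lost after quantile normalisation (adjusted exact p = 0.462). Rab3a minus Rab3d was -6.41 to -5.59 units in bone marrow and -3.26 to -2.99 in small intestine.

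Rab27a minus Rab27b was 10.89, 9.73, 9.82 and 7.73 units in bone marrow and 4.01, 5.09, 5.84 and 6.36 in small intestine. The Rab27 pair was no longer called without SI_6 or SI_7, and the Rab4 pair, where Rab4a minus Rab4b was -2.23 to -0.31 units in bone marrow and 0.37 to 3.75 in small intestine, was not called without SI_6 (adjusted exact p = 0.0727 for each). Rab3c and Rab3d also passed (5.45). The pairs that did not pass were Rab2a and Rab2b (-0.61, exact p = 0.0571), Rab8a and Rab8b (-0.42, exact p = 0.0571), Rab3a and Rab3c (-2.67, exact p = 0.114) and Rab5b with Rab5c. Rab8a with Rab8b was called without SI_6 and Rab3a with Rab3c without BM_5.

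**Figure D3:**
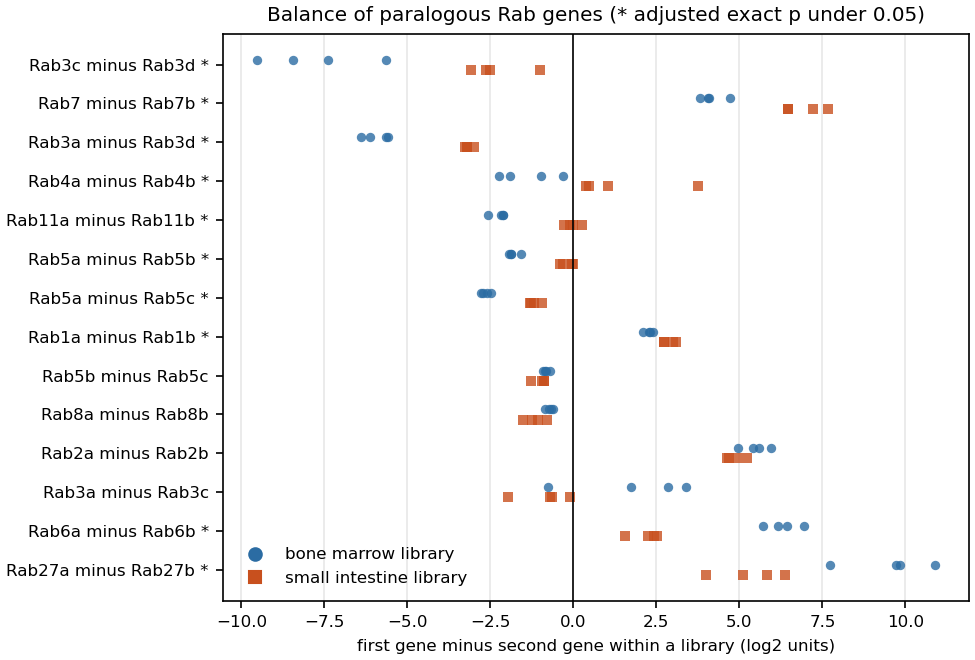
Difference between the 2 genes of a Rab pair within each library (log2 units, first gene minus second) for the 14 pairs with a mean of at least 10 reads per gene. Blue circles are bone marrow libraries, orange squares small intestine libraries, and asterisks mark the 10 pairs whose adjusted exact p was under 0.05. The differences are not scaled for exon length. Rab11a minus Rab11b moved from between -2.57 and -2.11 in bone marrow to between -0.29 and 0.26 in small intestine.

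Several of the rises were largest where epithelial transcripts were highest. The epithelial list held 238 RPM in SI_10, 246 in SI_11, 609 in SI_7 and 1539.6 in SI_6, a 6.47-fold difference between the ends. The goblet and Paneth, macrophage and dendritic, fibroblast and smooth muscle, and plasma and B cell lists had the same library order. Which of these lists the rises went with cannot be told apart in these libraries. Rab25 held 2.87, 2.62, 5.996 and 13.6 RPM in the same libraries, Rab19 0.791, 0.895, 2.61 and 4.85, and Rab15 1.22, 1.45, 3.48 and 6.04. Rab4a, Rab17 and Rab27b were also highest in SI_6, at 7.44, 3.65 and 8.85 RPM, and between 0.620 and 5.13 in the others. In normalised counts, SI_6 exceeded SI_10 by 6.26-fold for Rab19, 5.05-fold for Rab15, 4.81-fold for Rab25, 3.53-fold for Rab4a, 3.22-fold for Rab27b and 2.0-fold for Rab17.

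Without SI_6 these 6 genes were still called higher, by 2.56 (Rab25), 2.32 (Rab4a), 3.53 (Rab27b), 1.89 (Rab19), 1.75 (Rab15) and 1.75 (Rab17), with limma adjusted p-values between 0.00304 and 0.0245. The epithelial list was higher than in bone marrow in all of the remaining libraries too, and its part in these rises was not tested. Rab39, Rab20, Rab37 and Rab11a, the largest rises with a mean above 100 reads, behaved otherwise: SI_6 over SI_10 was 1.13 for Rab39, 0.662 for Rab20, 0.660 for Rab11a and 0.958 for Rab37. It was 0.537 for Rab44 and 0.591 for Rab8b, the risen Rabs with most reads. Over all 59 members, 13 were highest in SI_6, 10 in SI_7, 17 in SI_10 and 19 in SI_11. Only 4 members followed the library order of the epithelial list in full, and the same counts were not made over all genes.

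**Figure D4:**
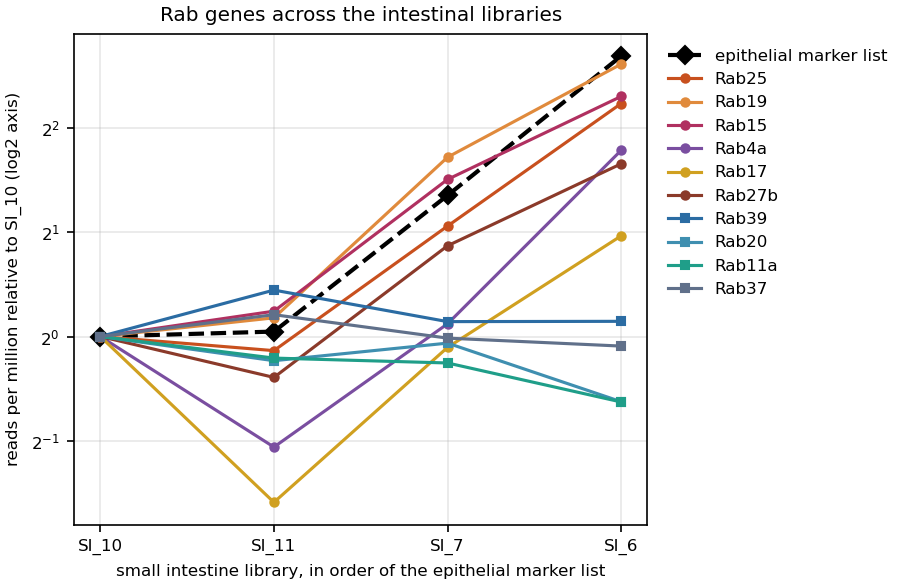
RPM in each small intestine library relative to SI_10 (log2 axis), with libraries ordered by the epithelial marker list (dashed line, diamonds). Circles are 6 Rab genes that were highest in SI_6 and squares are 4 of the largest rises with a mean above 100 reads. From SI_10 to SI_6 the epithelial list rose 6.47-fold, and Rab39, Rab20, Rab11a and Rab37 did not follow it. Other marker lists had the same library order.

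The Rab cycle is run by genes of other families, and 148 of them were listed in 4 classes. Of these, 67 rose, 28 fell and 53 were not called, with a median difference of 0.59. All but 4 had a mean of at least 10 reads, a class of genes in which 34.6% rose and 28.6% fell. By class, 19 of 34 exchange factors rose and 5 fell, 15 of 40 GTPase-activating proteins rose and 9 fell, 29 of 58 effectors rose and 8 fell, and 4 of 16 escort and prenylation genes rose and 6 fell. The count again depended on the scaling: centred on the median of all genes, 34 rose and 40 fell.

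Gdi2 encodes a dissociation inhibitor that extracts Rabs from membranes. It stood at 12.16, 12.13, 11.47 and 12.06 in bone marrow and at 12.30, 12.48, 12.65 and 12.35 in small intestine. Gdi2 was higher in every small intestine library but not called (0.49 ± 0.22, limma adjusted p = 0.129). It was called higher with the mean-dependent robust prior, with voom on the recovered reads and with the minimum of 10 reads. The Rab escort genes moved apart: Chm, at 8.58 to 8.75 in bone marrow and 10.70 to 11.08 in small intestine, rose by 2.29 ± 0.18, and its retrogene relative Chml fell by 1.68 ± 0.26.

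Among exchange factors the largest rise was that of Sbf2 (5.39 ± 0.58), a DENN-domain protein that acts on Rab21 and Rab28. It stood at 4.86, 3.94, 2.83 and 5.90 in bone marrow and 10.14, 9.74, 9.56 and 9.63 in small intestine, while both of these Rabs fell. Ankrd27, an exchange factor for Rab21 that also binds Rab32 and Rab38, had the largest fall of the class (-1.29 ± 0.17). For GTPase-activating proteins the extremes were Sgsm1 (3.17 ± 0.59) and Tbc1d2 (-3.29 ± 0.21), which acts on Rab7. Tbc1d2 stood at 8.80, 9.04, 8.94 and 8.86 in bone marrow and at 6.07, 5.36, 5.50 and 5.57 in small intestine, with no overlap.

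The largest rise among effectors was that of Rab11fip4 (4.83 ± 0.21, limma adjusted p = 1.48e-06), which binds Rab11 on recycling endosomes. It stood at 6.07, 6.38, 6.26 and 5.73 in bone marrow and at 10.79, 10.92, 10.92 and 11.12 in small intestine, and its partner Rab11a rose in the same libraries. The largest fall was that of Myo5a (-2.94 ± 0.17, limma adjusted p = 6.64e-06), the myosin that Rab27a recruits to granules. It stood at 12.13, 12.05, 12.25 and 12.09 in bone marrow and at 9.31, 9.12, 9.03 and 9.30 in small intestine, while Rab27a was not called.

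**Figure D5:**
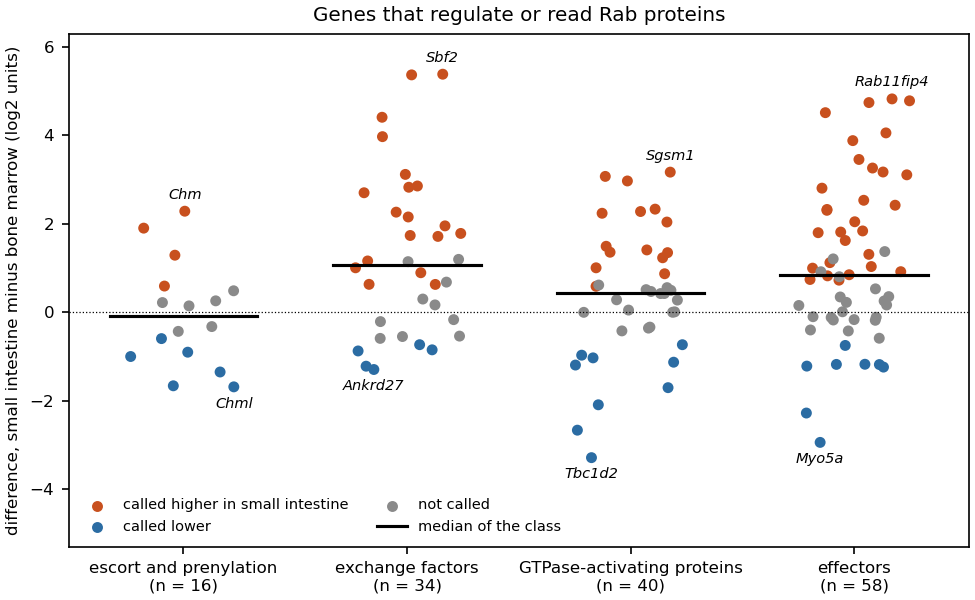
Difference between tissues on the deposited log2 scale (small intestine minus bone marrow) for 148 genes that regulate or bind Rab proteins, in 4 classes. Orange points were called higher, blue lower and grey not called, black bars are class medians, and the largest called rise and fall of each class with a mean of at least 10 reads are named. The class medians were -0.09 for escort and prenylation genes, 1.08 for exchange factors, 0.45 for GTPase-activating proteins and 0.84 for effectors.

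Some values carry an uncertainty from overlapping annotation, since the strand setting of the counting is not given in the sources used here. Exons of 20 members share bases with another gene, and for 8 members by more than 10% of the exonic length. Rab43 (75.4%) and Rab4b (65%) share exons on the same strand with read-through genes that are not used here, Rab2b shares 59.3% and Rab6a 19% with genes on the opposite strand, and Rab20 shares 25.6% with a non-coding gene on the opposite strand that had a mean of 59.8 reads. The processed copies Rab11b-ps2 and Rab9b-ps1 had means of 4 and 0.875 reads, beside 1508 for Rab11b and 2.5 for Rab9b.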

How the data were processed

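RNA from 8 libraries, 4 per tissue, was converted to amplified cDNA and sequenced from a single end. According to the study's methods, the authors aligned reads to GRCm38 (Ensembl 86) with a public pipeline, counted them per gene and ran DESeq2 in R 4.0.3. The values deposited by the authors are variance-stabilised expression on a log2-like scale, with aligner and strand setting not given in the sources used here. The transformation was inverted from its closed form and lowest value (0.92971568). All inverted values were whole reads within 0.05 after multiplication by a size factor per library (0.721 to 1.53). Libraries of 1 tissue always differed by more than counting noise. All 38392 genes were tested together in limma 3.58.1 (R 4.3.3) on the deposited values, with no covariate or filter and a threshold of 0.05. The scripts were tested on simulated data. Paralogue pairs were tested with exact permutations in Python 3.11.15 (numpy 2.4.6, pandas 2.3.3). Coordinates came from GENCODE M21 and promoter sequences from RefSeq. The Rab genes, the 148 regulators, the 7 role groups and the 11 marker lists were chosen with earlier results of these data known. Named in full were the Rabs of regulated secretion, the most abundant member of each role per kb, the 8 largest called rises and falls averaging at least 10 reads, and the extremes of each regulator class and Gdi2. Another regulator in this rule is not reported here. Alternatives were other priors, voom, pseudocounts of 1 and 5, a minimum of 10 reads, other scalings, a 1-unit threshold and leaving out each library.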

Additional observations from a re-analysis of the deposited data

Results flagged for a closer look

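Among 142 groups of 4 libraries examined for 59 Rab genes, 11 marker lists and the summed Rab share of reads, 11 held a library whose gap to its nearest neighbour took so much of the group's range that it passed Dixon's 95% critical value. Chance gives about 1 in 20 groups, or 7.1 here. One was Rab20, whose lowest small intestine library SI_6 stood at 9.45 with the next at 9.99 (gap 0.9 of the range). SI_6 also had the lowest eosinophil list in small intestine (2150 RPM, next 2625, gap 0.889). In bone marrow BM_4 was set apart for Rab44 (11.90, next 11.81, gap 0.914), Rab28 (9.22, next 9.09, gap 0.906) and Rab26 (3.48, next 4.48, gap 0.848), and BM_5 for Rab9 (9.19, next 9.61, gap 0.851). Rab40b and Rab9b had reads in a single bone marrow library, BM_1 and BM_5, while the other libraries were equal at 0 reads, so the gap was 1 for both. In small intestine SI_7 had the highest pancreatic acinar list (3501 RPM, next 398, gap 0.976), SI_11 the highest neutrophil precursor list (71.1, next 64.9, gap 0.858) and SI_11 the lowest erythroid list (6.20, next 12.5, gap 0.847).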

How the results depend on the processing

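The count of Rab genes called stayed within 1.5 times its value of 20 higher and 13 lower under the other prior, voom on recovered reads, pseudocounts of 1 and 5, a minimum of 10 reads and quantile normalisation, and without each library (16 to 18 higher and 12 to 14 lower). Centring each library on its median over all genes gave 12 higher and 23 lower, and 34 regulators higher where 67 had been. A test against 1 log2 unit, which asks for a larger change, gave 9 Rabs higher and 4 lower, and 36 regulators higher and 7 lower. Without single libraries 59 to 68 regulators were higher and 25 to 32 lower, and 9 to 11 Rab pairs were called. Apart from the test against 1 log2 unit, 21 of the 33 Rab calls held under all alternatives and 3 changed sign, and 14 of the 26 uncalled Rabs were called under at least 1. No paired analysis was possible because the labels give the tissues no shared replicate numbers.

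Signs turned mostly for genes near 0, and the cause was not tested. Under centring on the library median the differences became -0.14 for Rab44, -0.22 for Rab2b, -0.13 for Rab33b, -0.68 for Rab11b, -0.43 for Rab12, -0.58 for Rab18, -0.43 for Rab26, -0.83 for Rab2a, -0.14 for Rab30, -0.069 for Rab33a, -0.59 for Rab39b, -0.86 for Rab4b, -0.89 for Rab7 and -0.41 for Gdi2. Under quantile normalisation they became -0.44 for Rab26, -0.17 for Rab2a, -0.24 for Rab30, -0.071 for Rab33a, -0.76 for Rab39b, -0.80 for Rab4b, -0.47 for Rab7 and -0.075 for Gdi2. Centred on genes averaging at least 10 reads, an alternative chosen after seeing the data, Rab4b was at -0.027 and Rab7 at -0.057. Rab3b was at 0.0040 with a pseudocount of 5, at 0.054 without BM_5 and SI_6 together, also chosen after seeing the data, and from -0.44 to 0.21 without single libraries. Without single libraries Rab4b ranged from -0.24 to 0.34, Rab7 from -0.055 to 0.050, Rab22a from -0.12 to 0.010 and Rab2a from -0.0085 to 0.15.

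Depth limits the 8 Rabs with a mean under 10 reads, where the deposited scale also compresses differences.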
